A study of Mus musculus with 24 samples.

Results

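The promoters of replication-dependent histone genes were represented by 21 of the 145143 consensus ATAC-seq intervals. An interval was a member if it lay within 1000 bp of an annotated transcription start site (TSS) and if its gene name was that of a clustered histone gene (Hist1h to Hist4h, or H2ac, H2bc, H3c or H4c with a number). In all, 16873 intervals lay within 1000 bp of a TSS, and these are called promoter intervals. Another 9 intervals carried such a histone name but lay farther from the TSS of the named gene. The members farthest from their TSS were H3c4 at 562 bp and H4c4 at 567 bp. The nearest histone-named intervals left out lay 2837 bp from H4c3 and 2884 bp from H2bc1. The interval left out at 4209 bp from H4c4 covered a RefSeq start of H2bc6. The rule also left out intervals over histone starts that carried other gene names, as given below.

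ATAC-seq, in which a transposase cuts and tags open DNA, was run on mouse embryonic stem cells (mESCs) kept on gelatin with LIF and inhibitors of MEK and GSK3. There were 4 lines: a wild type (WT) control, a WT line with an inducible transgene for the X-linked long noncoding RNA Firre, a Firre knockout (Firre KO) control, and a Firre KO line with that transgene (KO Firre line). Every library, those of the control lines included, came from cells given doxycycline, and 1 library per line was made at 0, 30, 60, 90, 120 and 150 min. This gave 23 libraries to analyse, 6 of each line but the WT Firre line, which had 5 because its 60 min library was not used here. Each genotype was 1 line, so genotype and clone cannot be told apart, and the promoter that drives the transgene is not described beyond being inducible. Libraries of a line at different times stood in for replicates, so that each SD below is over times.

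Most core histone protein is made during S phase from replication-dependent genes, which have no introns and lie in clusters, many of them as divergent H2A and H2B pairs that share a promoter region. In the nucleus these clusters gather in the histone locus body, where NPAT, a substrate of cyclin E and CDK2, drives their transcription. Their mRNAs end in a stem-loop bound by SLBP in place of a poly(A) tail. Embryonic stem cells divide fast and spend much of their cycle in S phase.

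All 21 members lay on chromosome 13 (mm10), the site of the largest histone cluster. They fell into a block of 4 at chr13:21721230-22036815, a block of 16 at chr13:23530302-23934997 and a single distant interval, Hist1h2al, a processed pseudogene at chr13:51202112-51204269. The rule found 0 members on chromosome 3 and 0 on chromosome 11. Of the 8 histone genes that the RefSeq promoter table (GRCm38.p6) lists on chromosome 3, 0 had a start site in an interval of the table used, so that cluster was not analysed here. The histone locus on chromosome 11 carried other names (H2bu2, H2bu1-ps and H3f4), and its 3 promoter intervals are given for comparison only, chosen after the names were seen. By the names in the file, 7 members were H4 genes, 6 were H3 genes, 7 were H2A or H2B genes and 1 was Hist1h2al.

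An interval often held more than the gene that named it. Of the 44 core histone genes that the RefSeq promoter table lists on chromosome 13, 27 had a start site in a member and 33 in any interval. The starts of H2bc13, H2ac13, H3c10, H4c9, H2ac11 and H2bc11 lay in intervals with other gene names, which were not members and were not analysed. The 33 leave out H2bc6, which was counted by a listed start in no interval, although another of its starts lay in a nonmember interval. The other genes had no interval at their start and were not analysed. With the linker histone gene H1f1 included, listed starts numbered 2 in each of 8 members, 1 in each of 12, and 0 in the Hist1h2al interval. Starts of names without an entry in that table, such as H3c1 and H2bc4, were not counted. In 6 intervals the 2 start sites pointed away from each other. The divergent starts lay 174 bp apart in the H2ac7 interval (H2bc7 and H2ac7), 178 bp in H2bc12 (H2ac12 and H2bc12), 180 bp in H2bc8 (H2ac8 and H2bc8) and 281 bp in H2bc1 (H2bc1 and H2ac1, the testis-specific H2B and H2A). The other 2 divergent intervals were wider apart, at 1213 bp in H2ac5-ps, a pseudogene name over the starts of H3c3 and H2bc3, and 2419 bp in H3c1, which covered the starts of H4c1 and of the linker histone gene H1f1. A value for an interval with several starts therefore belongs to each of its genes. Of the 21 names, 16 had an entry in the promoter table.

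Sequences just upstream of the start sites were searched for motifs known from histone promoters. Those below are RefSeq promoters of GRCm38.p6, written 5′ to 3′ in the direction of the named gene, with searched motifs in capitals (on the opposite strand, CCAAT reads ATTGG). For each family the promoter was taken of the member with the highest level per kb among those with an entry in that table, which H3c1 and H2bc4 lack under their own names, and H4c3 was added after the sequences were seen, to show the H4 element upstream of a start. The runs are H4c2 (chr13:23756757-23756936, plus strand), H4c3 (chr13:23698459-23698638, minus strand), H3c6 (chr13:23562386-23562565, minus strand), H2ac7 (chr13:23574208-23574380, plus strand) and H2bc8 (chr13:23571221-23571399, plus strand). The last 2 are the whole stretch between divergent starts, from that of H2bc7 to that of H2ac7 and from that of H2ac8 to that of H2bc8.
H4c2: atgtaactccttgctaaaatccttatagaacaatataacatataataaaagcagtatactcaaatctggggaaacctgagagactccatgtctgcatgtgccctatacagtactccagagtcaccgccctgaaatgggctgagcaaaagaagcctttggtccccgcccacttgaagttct
H4c3: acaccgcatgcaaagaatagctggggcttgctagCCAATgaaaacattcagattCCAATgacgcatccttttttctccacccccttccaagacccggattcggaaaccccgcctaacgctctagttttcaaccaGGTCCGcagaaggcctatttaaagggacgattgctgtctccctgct
H3c6: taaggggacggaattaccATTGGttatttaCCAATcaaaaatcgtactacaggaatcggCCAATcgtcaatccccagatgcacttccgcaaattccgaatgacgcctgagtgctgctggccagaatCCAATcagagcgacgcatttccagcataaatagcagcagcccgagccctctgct
H2ac7: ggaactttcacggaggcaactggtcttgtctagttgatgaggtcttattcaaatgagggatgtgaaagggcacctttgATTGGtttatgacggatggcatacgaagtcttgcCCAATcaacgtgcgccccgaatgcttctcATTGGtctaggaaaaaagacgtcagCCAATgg
H2bc8: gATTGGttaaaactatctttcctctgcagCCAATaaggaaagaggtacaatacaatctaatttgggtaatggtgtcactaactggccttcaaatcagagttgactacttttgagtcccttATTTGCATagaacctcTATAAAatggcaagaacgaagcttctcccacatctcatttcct

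In the H2bc8 run, the octamer ATTTGCAT, the site that OCT1 (Pou2f1) is known to bind in H2B promoters, begins 59 bases before the start, and a TATA box begins 43 bases before it. Over RefSeq windows of 300 bases searched on both strands, the octamer occurred in 5 of 7 H2A and 5 of 7 H2B promoters of the members, in 0 of 5 H3 and 0 of 8 H4 promoters, and in 1.74% of all 32851 promoters. The windows of the closely spaced divergent starts overlap, so a single match can count for both partners. The octamer of the H2bc8 run thus also counts for H2ac8, and both partners are counted in the H2bc12 and H2bc1 intervals. The H2A and H2B counts are therefore not separate. The core of the H4 element, GGTCCG, part of the site bound by HINFP, occurred in 7 of 8 H4 promoters, in 1 of 7 H2B promoters (H2bc9), in none of the 7 H2A and 5 H3 promoters, and in 8.25% of all promoters. It begins 46 bases before the start in H4c3 and H4c6 and 47 before it in H4c4, nearer the start at 32 bases before it in H4c12, 18 in H4c11 and 5 in H4c8, and at base 7 after the RefSeq start in H4c2, which is why the H4c2 run above holds none. CCAAT occurred in 22 of the 27 promoters and in 37.4% of all, with 4 copies each in the H3c6 and H2ac7 runs. TATAAA occurred in 18 of 27 and in 13.6% of all, and AAACACA, the H1 box, in 4 of 27 and in 7.18% of all. None of these motifs contains another on either strand, though TATAAA and AAACACA can share their A bases where they meet, and a match describes letters, not binding.

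Histone genes of a family have near-identical coding sequences, and how reads that map to several copies were counted is not given in the sources used here. The promoter windows themselves differed: of the 27, only those of H4c11 and H4c12 shared any stretch of 50 bases, in 29 of 251 positions (11.6%). The members are wider than these windows, at 734 to 4656 bp, and those of H4c2, H4c3, H4c4, H4c6 and H3c4 were annotated as exon. Coding sequence counted outside the windows was thus not checked for shared stretches.

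The libraries held between 5725518 and 14977148 counts in intervals (median 7664147). The highest total was that of the WT Firre line at 90 min, and the next in that line was 8314720. A member held 55 to 1316 counts in a library, with a median of 236, so no member was near the detection limit. The 20 intervals named for Firre summed to between 81.7 and 99.5 CPM (counts scaled by TMM library size) in the WT control and to 6.61 to 14.3 CPM in the Firre KO control, so the genotype labels held in all 12 control libraries. In the transgenic lines they summed to 116 to 139.8 CPM in the WT and to 18.2 to 28.6 CPM in the Firre KO background. All 6 listed embryonic stem cell genes (Pou5f1, Nanog, Sox2, Zfp42, Esrrb and Klf4) had a promoter interval, at mean levels of 22.3 to 73.0 CPM, while 0 of 4 fibroblast genes had one. The share of counts in promoter intervals, which rises with the signal over background of a library, was 30.0% ± 0.426 (SD, n = 6) in the WT control, 31.5% ± 1.63 (n = 5) in the WT Firre line, 32.5% ± 0.592 (n = 6) in the Firre KO control and 32.2% ± 0.318 (n = 6) in the KO Firre line.

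The members are consensus intervals, so that they were open follows from how they were chosen. Of the 21, 19 lay above the median of all promoter intervals. Per kb of interval, the members' median level over the 23 libraries was 16.9 CPM per kb, against 8.32 for all promoter intervals (quartiles 4.62 and 15.4). The members were also wider, with a median of 1939 bp (734 to 4656) against 1218 bp. The highest level per kb was that of H4c2, a core histone H4 gene, at 26.7 CPM per kb (20.6 to 36.4 over libraries), followed by H4c8 at 24.3, H2ac7 at 22.3 and H2bc4 at 21.2. The H4c2 interval, at 202 bp downstream of the start, was annotated as exon. Whether reads that map to several copies add to its level was not tested. Among the families, the median level was 20.6 CPM per kb for H2A and H2B intervals, 16.9 for H4 and 16.7 for H3.

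At the low end, H2bc1 stood at 6.24 CPM per kb (4.77 to 7.86 over libraries) and Hist1h2al at 7.65 (5.60 to 9.22). These are the testis-specific H2B promoter and the distant pseudogene. Every library of 19 of the 20 other members exceeded every library of H2bc1 on this scale, with Hist1h2al the exception, while Hist1h2al overlapped H2bc1, H3c4, H3c7 and H4c12. Next above them were H4c12 at 11.8 and H3c7 at 11.9 CPM per kb. In the order from high to low, the libraries of all 20 neighbouring pairs overlapped, so the order is fixed only over larger steps.

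**Figure D1:**
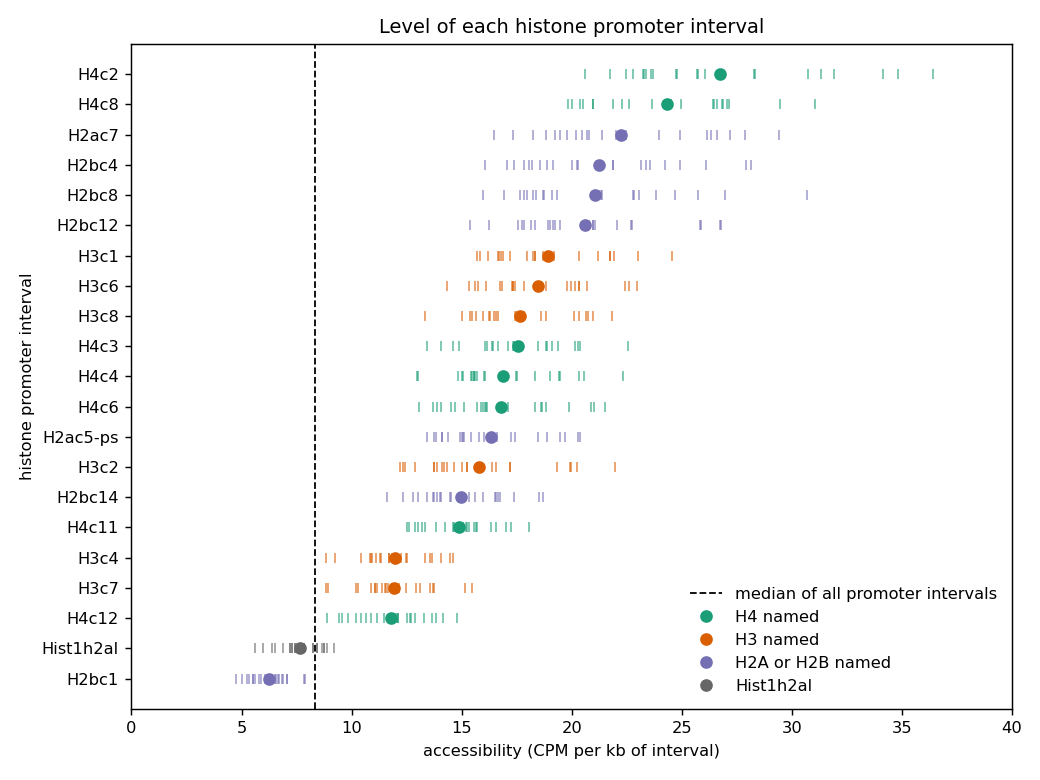
Accessibility of the 21 histone promoter intervals in CPM per kb of interval, with 1 tick per library (23) and a dot for their mean, ordered by mean and coloured by the family in the name. The dots run from 26.7 for H4c2 to 6.24 for H2bc1, and only H2bc1 and Hist1h2al lie left of the dashed line at 8.32, the median of all promoter intervals.

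The control lines were compared to ask how the lines differ without transgene. All 21 histone promoter intervals had a higher fitted level in the Firre KO control than in the WT control, with a median log2 difference of 0.24, and 6 of them rose by the test. The 6 were H2bc4, H2bc8, H4c6, H3c1, H4c3 and H2ac7, with log2 differences of 0.30 to 0.33. All 6 lay in the block of 16, where the median was 0.25, against 0.16 in the block of 4. By name they were 3 of 7 H2A or H2B, 2 of 7 H4 and 1 of 6 H3 intervals, and 0 fell.

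These counts stand on a background that moved the same way. Of all 129515 intervals tested, 7.97% were called and 5.5% were called higher in the Firre KO control. Among promoter intervals 16.4% were called higher and 1.34% lower, with a median log2 difference of 0.09, and among those of chromosome 13 13.7% and 1.45%, with a median of 0.08. The fitted level was higher in 10662 of the 16103 promoter intervals tested. Promoters of chromosome 11 were called higher in 42.5%, with a median of 0.26. The share of counts in promoter intervals, given above, was also higher in the Firre KO control, and with that share as a covariate 0 members passed, as 13 of all 129515 intervals and 1 of 16103 promoter intervals were called higher. In bulk chromatin, more cells with an open promoter and more openness per cell cannot be told apart.

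At H2bc4, whose interval also covers the start of H2ac6, the WT control libraries ran from 32.2 CPM through a median of 36.3 to 40.1, and the Firre KO control libraries from 40.6 through 44.8 to 56.0. The groups did not overlap, and the log2 difference was 0.33 ± 0.09 (SE; edgeR adjusted p = 0.00717). H3c1 was the other interval without overlap, at 73.2, 76.5 and 80.1 CPM (lowest, median and highest) in the WT control and 85.3, 91.6 and 114 in the Firre KO control. Its log2 difference was 0.31 ± 0.08 (edgeR adjusted p = 0.0107). In both, the Firre KO library was higher at 6 of 6 times. How often promoter intervals at large separated in this way was not counted, while 16.4% of them were called higher.

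The other 4 called intervals overlapped between the lines. H2bc8, with its octamer promoter shown above, had 27.4, 30.7 and 36.4 CPM in the WT control and 32.8, 37.8 and 52.6 in the Firre KO control (0.32 ± 0.09, edgeR adjusted p = 0.0113). H2ac7, the next divergent pair along the chromosome, had 19.5, 22.8 and 26.2 CPM against 22.7, 27.97 and 34.7 (0.30 ± 0.09, edgeR adjusted p = 0.0267). Both were higher at 6 of 6 times, although the ranges over times overlapped.

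The called H4 intervals were lower in level. H4c6 had 18.2, 19.8 and 22.4 CPM in the WT control and 20.99, 24.99 and 29.3 in the Firre KO control (0.32 ± 0.09, edgeR adjusted p = 0.0141). H4c3 had 18.0, 20.8 and 22.4 CPM against 21.98, 25.5 and 30.3 (0.30 ± 0.09, edgeR adjusted p = 0.0186). Each was higher at 5 of 6 times. H4c2, the narrowest member at 734 bp and the highest per kb, had 15.1, 17.2 and 19.1 CPM against 16.7, 19.0 and 26.7, and its difference of 0.24 ± 0.10 did not pass (edgeR adjusted p = 0.105).

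The 2 members with the lowest levels per kb had the smallest differences between the control lines. H2bc1 had 10.1 ± 2.19 CPM (SD, n = 6) in the WT control and 10.3 ± 1.17 in the Firre KO control, a log2 difference of 0.03 ± 0.11. Hist1h2al had 16.1 ± 1.61 and 16.3 ± 2.65 CPM, a difference of 0.00 ± 0.10. Neither passed the test, and each was higher in the Firre KO control at 3 of 6 times.

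**Figure D2:**
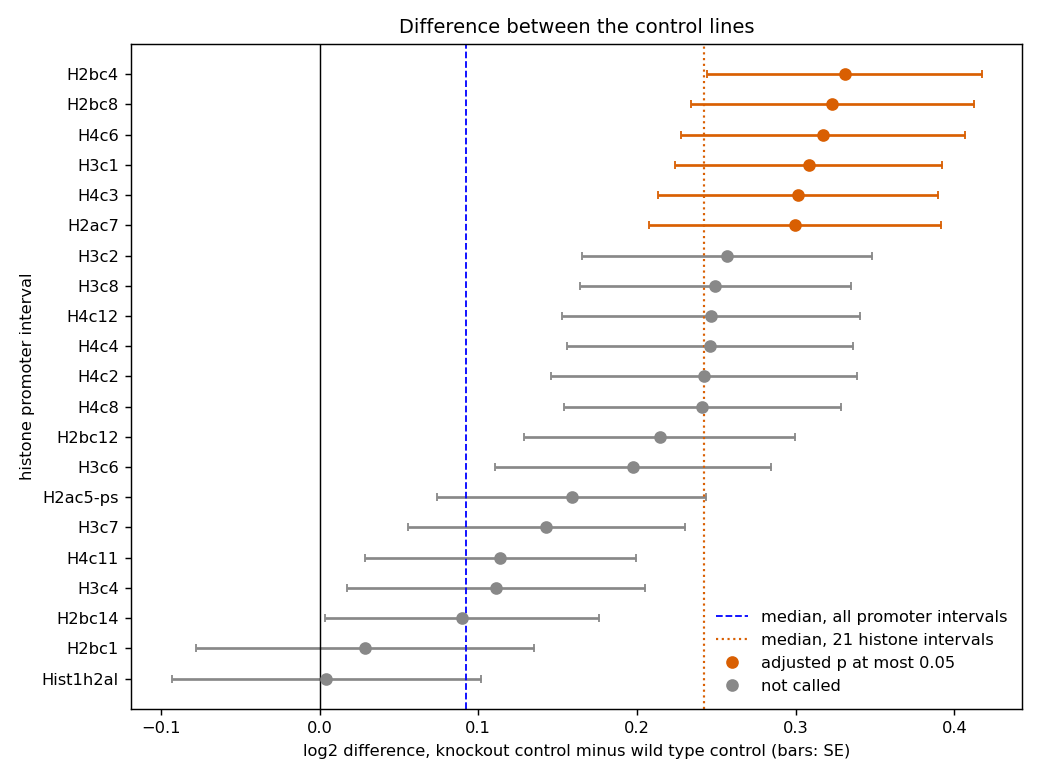
Log2 difference between the Firre KO control and the WT control for each of the 21 histone promoter intervals, with bars of 1 SE. The 6 orange points passed the test over all intervals, all 21 points lie at or above 0, and the dotted line at 0.24 marks their median beside the dashed line at 0.09 for all promoter intervals.

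A few libraries decided how many members were called. The share of other promoters called moved with them. Without the Firre KO control at 90 min 0 members passed, without that at 30 min 3 passed, and without that at 150 min 16 passed. In the same order, 2.95%, 3.72% and 8.58% of all intervals and 8.98%, 10.9% and 24.5% of promoter intervals were called higher. Without the WT control at 30 min 2 passed, without that at 90 min 1, and without the WT Firre line at 150 min 11, where 12.6%, 9.97% and 20.1% of promoter intervals were called higher. Without both the 30 and 90 min libraries of the Firre KO control 0 passed, with a median of 0.13, as did with the promoter share as a covariate, with a median of 0.04. With offsets that level the trend with abundance (loess), the median was 0.00 and only H2ac5-ps was called, as lower. Under that setting H3c1 turned to -0.07. With total counts in place of TMM, 3 passed (H2bc4, H2bc8 and H3c1), and the calls over all intervals went from 7128 higher and 3196 lower to 3855 higher and 7224 lower.

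The libraries of the Firre KO control differed widely among themselves at these promoters. Summed over the 21 members, they held 678 CPM at 0 min, 768 at 30, 672 at 60, 888 at 90, 778 at 120 and 620 at 150 min. The 90 min library was the highest of its line at 17 of 21 members, and the 150 min library was the lowest at 16. The WT control was more even, at 610, 582, 639, 608, 659 and 643 CPM in order of time. The means were 734 ± 96.9 CPM (SD, n = 6) and 623 ± 28.3 CPM (n = 6), and the Firre KO control was higher at 5 of 6 times.

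Counted against other promoters of the same library, the lines came closer. Per 1000 counts in promoter intervals, the members took 2.17 ± 0.207 (SD, n = 6) in the Firre KO control and 2.14 ± 0.0665 (n = 6) in the WT control. The lowest, median and highest libraries were 1.90, 2.14 and 2.51 against 2.02, 2.16 and 2.19, so the range of the Firre KO control enclosed that of the WT control. By this measure the Firre KO control was higher at 3 of 6 times.

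**Figure D3:**
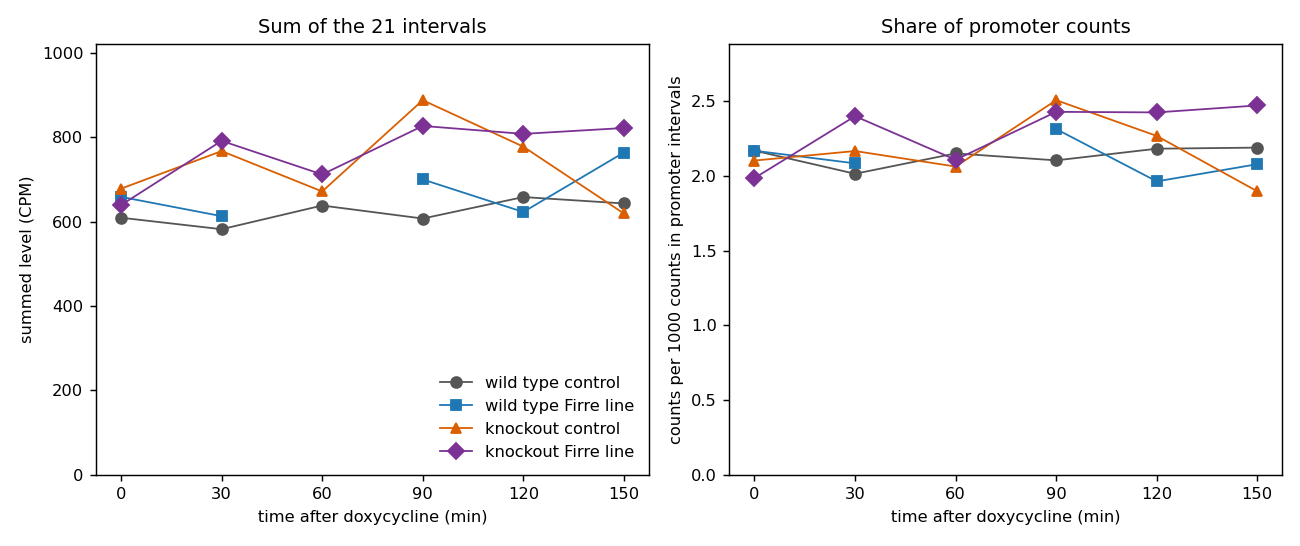
Summed level of the 21 histone promoter intervals (left, CPM) and their counts per 1000 counts in promoter intervals (right) against time after doxycycline, with 1 library per point and 1 line per colour. On the left the Firre KO control peaks at 888 CPM at 90 min while the WT control stays between 582 and 659 CPM, and on the right all points lie between 1.90 and 2.51.

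The transgenic lines were compared with their own controls to ask what the transgene changes over all times. In the WT background 0 of 21 histone promoters were called (edgeR), where 0.0818% of all intervals were, and DESeq2 also called 0. At an unadjusted p under 0.05 there were 2. Among the 16103 promoter intervals tested, 2011 had such a p and 10307 had a positive difference. The members' median log2 difference was 0.09, against 0.05 for all promoter intervals, and 18 of 21 were positive. That median was 0.04 without the WT Firre line at 150 min or the WT control at 90 min, -0.01 under loess and -0.03 when the promoter share was added to the fit. Their sum was 659 CPM at 0 min, 613 at 30, 700 at 90, 623 at 120 and 764 at 150 min, above the WT control at 4 of 5 times, and per 1000 promoter counts above it at 2 of 5.

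The smallest p in that comparison belonged to H4c12, an H4 gene of the block of 4. Its libraries of the WT Firre line held 20.7, 18.3, 21.7, 19.2 and 23.8 CPM at 0, 30, 90, 120 and 150 min, and those of the WT control ran from 15.3 through 16.7 to 21.5. The groups overlapped through the WT control at 60 min, and the difference of 0.26 ± 0.10 did not pass (edgeR adjusted p = 0.473). H3c1 came next, with 83.7, 77.7, 87.1, 85.0 and 107 CPM against 73.2, 76.5 and 80.1 (0.19 ± 0.09, edgeR adjusted p = 0.615). Its highest value, at 150 min, was in the library that was the highest of its line at 17 of 21 members and that had the largest share of counts in promoter intervals, 34.2%. Under loess offsets the H3c1 difference was -0.02.

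In the Firre KO background 0 of 21 members were called as well, where 0.913% of all intervals were, with 0 by DESeq2 and 2 at an unadjusted p under 0.05. Among the 16103 promoter intervals tested, 1561 had such a p and 7574 had a positive difference. The members' median was 0.06, against -0.01 for all promoter intervals, and 19 of 21 were positive. Without the Firre KO control at 150 min it was -0.02. The members of the KO Firre line summed to 640 CPM at 0 min, 792 at 30, 712 at 60, 827 at 90, 808 at 120 and 822 at 150 min, above the Firre KO control at 4 of 6 times, and also at 4 of 6 per 1000 promoter counts. H2ac5-ps, over the starts of H3c3 and H2bc3, had 60.0, 69.9 and 74.0 CPM (lowest, median and highest) in the Firre line and 50.5, 59.2 and 74.2 in its control (0.17 ± 0.08, edgeR adjusted p = 0.385). H2bc12 had 38.3, 47.8 and 52.7 CPM against 37.4, 39.4 and 52.6 (0.17 ± 0.08, edgeR adjusted p = 0.387). The groups overlapped in both. With loess offsets H2ac5-ps was called higher, by 0.19.

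These 2 comparisons and that of the control lines share control libraries, so their values are given side by side only. The difference between the transgenic contrasts of the 2 backgrounds called 0 members by edgeR and 0 by DESeq2, with 0 at an unadjusted p under 0.05, where 0.266% of all intervals were called. Of the 16103 promoter intervals tested, 2014 had such a p. The members' differences ran from -0.22 for H3c4 to 0.22 for H3c1 (± 0.14 and ± 0.12, edgeR adjusted p = 0.578 and 0.539), with 12 positive and 9 negative. Under loess offsets H2ac5-ps was called lower, by -0.34, and H3c1 was at -0.03.

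Induction of Firre was followed over time against the control lines. The mean change from 0 min to the later times in the Firre lines, less that of the controls, called 0 members by edgeR and by DESeq2, with 0 at an unadjusted p under 0.05, and 0% of all intervals were called. Of the 16103 promoter intervals tested, 447 had such a p. The members' median was 0.07, against 0.01 for all promoter intervals. It turned to -0.12 without the KO Firre line at 0 min and was 0.28 without the WT Firre line at 0 min. The smallest p values belonged to H4c3, at 0.25 ± 0.18, and H3c6, an H3 gene with 4 CCAAT boxes in the run above, at 0.23 ± 0.17 (edgeR adjusted p = 1.0 for both). The SE of a member in this fit had a median of 0.17, so that a change of the size seen between the control lines was not detectable.

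The values behind H4c3 show how few libraries carry the change. In the KO Firre line it had 21.7 CPM at 0 min and 24.8, 23.6, 27.4, 27.3 and 26.0 CPM afterwards, and in the WT Firre line 18.9 CPM at 0 min and 23.2, 23.0, 23.7 and 25.3 CPM afterwards. Both lines were lowest at 0 min. The Firre KO control had 25.7 CPM at 0 min and 21.98 to 30.3 CPM afterwards, and the WT control 19.6 and 18.0 to 22.4 CPM. H3c6 lay between 29.1 and 46.6 CPM over all lines, and its lowest and highest values both came at 150 min, in the Firre KO control and the KO Firre line.

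A steady slope per hour, shared by both backgrounds, also called 0 members by edgeR and by DESeq2, with 1 at an unadjusted p under 0.05, where 0.000772% of all intervals were called. Among the 16103 promoter intervals tested, 738 had such a p and 9923 had a positive slope. The slopes of 20 of 21 members were positive, with a median of 0.08 log2 per hour, against 0.03 for all promoter intervals and 0.05 for those of chromosome 13. Over the alternatives that median ran from 0.01, without the Firre KO control at 150 min, to 0.13, without the WT Firre line at 0 min. H4c12 had 0.17 ± 0.08 per hour and H3c6 0.14 ± 0.07 (edgeR adjusted p = 0.976 for both).

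The 0 min library of the KO Firre line was low at nearly every histone promoter. It was the lowest of its line at 19 of 21 members, with a sum of 640 CPM, against 712 to 827 CPM at the 5 later times. Per 1000 promoter counts it held 1.99, against 2.11 to 2.47. No other line had its 0 min library below all later ones: later sums were above that of 0 min at 3 of 5 times in the Firre KO control, at 3 of 5 in the WT control and at 2 of 4 in the WT Firre line. With 1 library at 0 min per line, this is a value of that library, without replicate.

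In the control lines alone, the mean change after doxycycline called 0 members by edgeR and by DESeq2, with 0 at an unadjusted p under 0.05 and 0% of all intervals called. Of the 16103 promoter intervals tested, 872 had such a p. The members' median was 0.09, against 0.05 for all promoter intervals, and -0.04 with loess offsets. H2bc1 had 0.28 ± 0.15 (edgeR adjusted p = 0.949), and H2bc4 0.20 ± 0.12 (edgeR adjusted p = 0.949). At H2bc4 the control libraries of 0 min were at 32.2 CPM in the WT and 40.7 CPM in the Firre KO line, and the later ones ran from 34.2 to 40.1 and from 40.6 to 56.0 CPM.

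**Figure D4:**
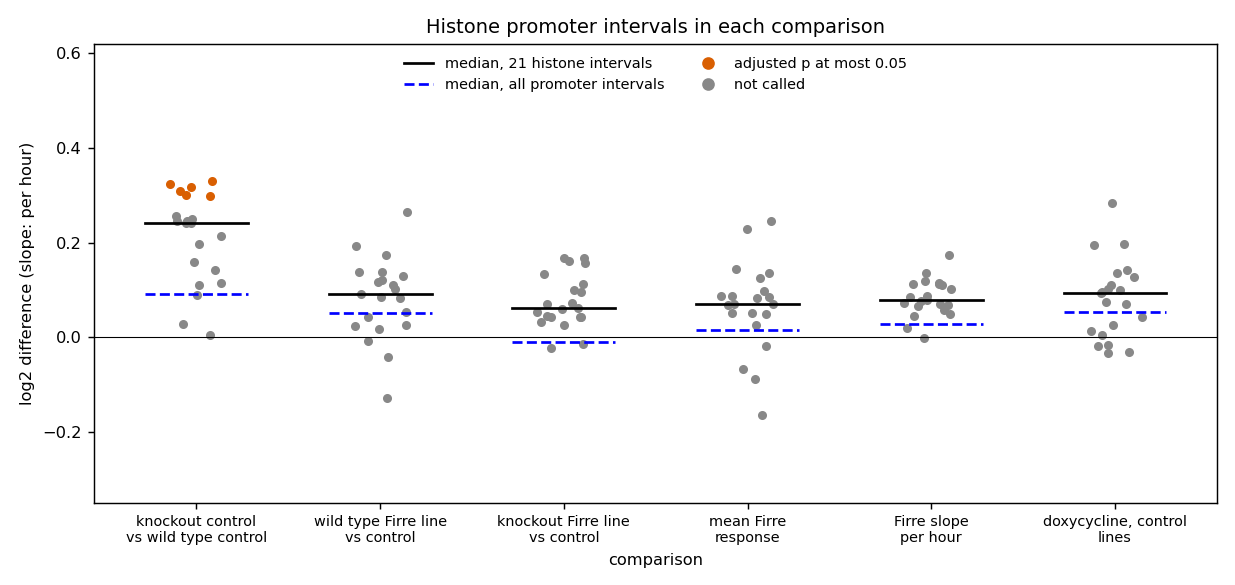
Log2 differences of the 21 histone promoter intervals in 6 comparisons, 1 point per interval (for the slope, log2 per hour), with a black line at their median and a dashed line at the median of all promoter intervals. Only the comparison of the control lines has called intervals (6, orange), and the histone median lies above the promoter median in each.

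**Figure D5:**
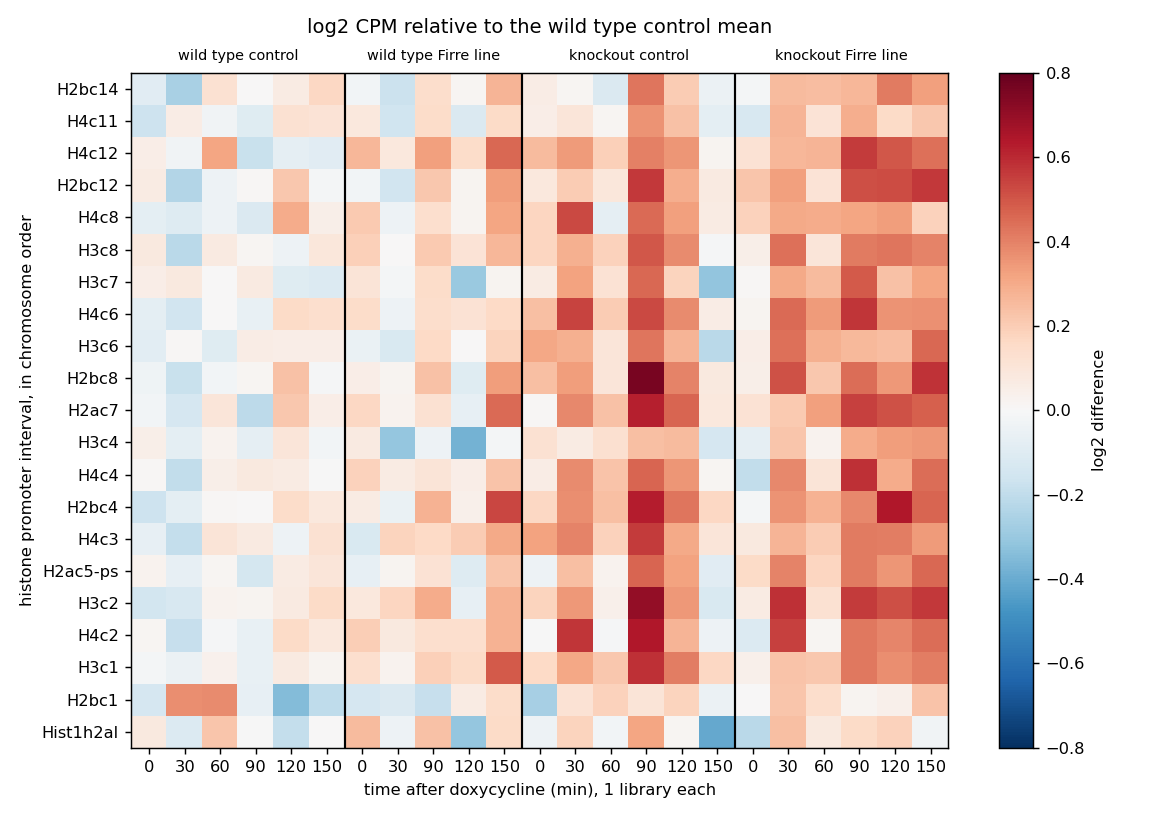
Log2 CPM of each histone promoter interval (rows, in chromosome order) in each of the 23 libraries (columns, by line and time), relative to the mean of the WT control. Red columns that run through most rows include the Firre KO control at 30, 90 and 120 min, most later times of the KO Firre line, and the WT Firre line at 150 min. The Firre KO control at 90 min was the highest of its line at 17 of 21 intervals. The bottom rows, H2bc1 and Hist1h2al, are paler than most in the red columns only. Within the WT control, H2bc1 ran from 7.80 to 12.9 CPM.

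The genes that serve these promoters were followed through lists of the pathway. Their counts stand beside the 16.4% of all promoter intervals called higher. Of 15 listed regulators of histone gene transcription, 6 had a promoter interval, and 1 rose in the Firre KO control: Casp8ap2, which encodes FLASH, a component of the histone locus body, by 0.39 ± 0.09 (edgeR adjusted p = 0.00102). Of 18 genes for processing and decay of histone mRNA, 11 had one and 4 rose, among them Lsm11 of the U7 particle by 0.49 ± 0.09 (edgeR adjusted p = 5.56e-05), Sympk, the cleavage scaffold symplekin, by 0.36 ± 0.08 (edgeR adjusted p = 0.00221), and Slbp by 0.34 ± 0.09 (edgeR adjusted p = 0.00553). The medians of the lists were 0.23 and 0.18, beside 0.09 for all promoter intervals. None of the intervals of either list was called lower, though 2 of the 6 and 2 of the 11 had negative differences. The largest were Nfyb at -0.39 ± 0.25 and Srrt at -0.22 ± 0.14.

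Of the replication-independent histone genes, 7 had a promoter interval and 2 rose, H2az2 of the H2A.Z variant by 0.59 ± 0.09 (edgeR adjusted p = 2.94e-07) and H3f3b of the H3.3 variant by 0.42 ± 0.08 (edgeR adjusted p = 0.000226). Both lie on chromosome 11, as does Lsm11, where 42.5% of promoter intervals were called higher. Of the 7, 1 had a negative difference (Cenpa at -0.03) and was not called. Of the histone chaperone and S phase genes, 6 had one and 3 rose: Asf1b and Asf1a, chaperones of H3 and H4, by 0.42 ± 0.09 and 0.28 ± 0.09 (edgeR adjusted p = 0.000725 and 0.0352), and Mcm5 of the replicative helicase by 0.29 ± 0.08 (edgeR adjusted p = 0.0194). Of those 6, 2 had negative differences, Mcm3 at -0.23 and Mcm2 at -0.10, and neither was called. With the promoter share as a covariate, where 1 of 16103 promoter intervals was called higher, none of the list genes named here as risen passed. Asf1b was at -0.01 and Asf1a at -0.18 in that fit, which can hardly tell the share from the line. Leaving out 1 control library ended the call of Slbp (Firre KO at 120 min, 0.29), of Mcm5 (Firre KO at 30, 90 or 120 min or WT at 150 min, 0.26 to 0.28) and of Asf1a (any but those of 60 and 150 min in the Firre KO and of 60 and 120 min in the WT, 0.21 to 0.29). Of the other alternatives, H2az2 and Lsm11 kept their calls in 6 and lost them in 1, and H3f3b in 5 and 2. Casp8ap2, Sympk and Slbp kept theirs in 4 and lost them in 3, and Mcm5 in 3 and 4. Asf1b kept its call in 4 and Asf1a in 2. Among linker H1 genes only H1f2 had an interval of its own, and its 0.25 ± 0.09 did not pass (edgeR adjusted p = 0.0698).

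At the chromosome 11 histone locus, H2bu1-ps had 21.4 ± 1.73 CPM (SD, n = 6) in the WT control and 26.6 ± 2.87 in the Firre KO control, and rose by 0.31 ± 0.09 (edgeR adjusted p = 0.0127). That call was kept in all 23 fits with 1 library left out, but of the other alternatives it was kept in 3 and lost in 4. H2bu2 and H3f4 had 0.20 ± 0.09 and 0.17 ± 0.12 and did not pass. The 3 had a median of 0.20, beside 0.24 for the chromosome 13 members and 0.26 for all promoter intervals of chromosome 11. In the mean Firre response the 3 ran from -0.25 to -0.08, while the members' median was 0.07, and 0 of the 3 were called in any comparison other than that of the control lines. None of the intervals of the pathway lists was called in the comparisons other than that of the control lines.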

How the data were processed

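ATAC-seq was compared across 4 mESC lines and 6 times. The deposited table holds raw counts, 1 row for each consensus interval in each library, that the authors did not scale, and a deposited annotation gives each interval's position, gene name and signed distance to the TSS. The submitters' processing notes name mm10 as the build and MACS2 2.2.7.1 and featureCounts among the tools. Not given in the sources used here are the aligner, the annotation release, the transposase shift and the handling of duplicates and of reads mapping to several copies.

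The test was edgeR's quasi-likelihood F test (version 4.0.16) in R 4.3.3 (robust glmQLFit with legacy mode off), with TMM library sizes and filterByExpr (minimum of 10 counts, lines as groups), which kept 129515 of 145143 intervals and all 21 members. Benjamini-Hochberg adjustment ran over all tested intervals, and an adjusted p of at most 0.05 was called. SEs were derived from the F statistic. The line fit held line and time (14 residual degrees of freedom), the time fit line, time and transgene by time (9), and the slope fit line, time and transgene by hours (13), each over all 23 libraries with 1 shared estimate of the spread. A p-value therefore measures the spread between libraries that come from 1 line each, which may be technical. The scripts were tested on simulated data. CPM values were computed from the deposited counts on TMM library sizes.

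Alternatives were DESeq2 1.42.0, total counts, loess offsets (limma 3.58.1), no filter, members within 500 bp, the promoter share as a covariate, no time term, and libraries left out. Named were the 4 highest and 4 lowest members per kb, the called members (at most 6 per direction) or else the 2 with the smallest p, and called list genes (at most 3 per direction and list). The members, lists and rules were chosen with earlier results of these data known. RefSeq promoters (GRCm38.p6, the primary assembly of mm10) were matched by symbol, and interval-to-start distances computed from them differed from the deposited ones by 0 to 78 bp over 16 members.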

Additional observations from a re-analysis of the deposited data

Results flagged for a closer look

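Values that stood apart from the rest of their line were found in 3 of the 104 groups examined, where chance gives about 1 in 20. The groups were the libraries of each of the 4 lines at each of the 21 members and the 3 intervals of the chromosome 11 histone locus, and for the members' sum and their counts per 1000 promoter counts. H4c8 had 40.68 CPM in the WT control at 120 min, above the other libraries of that line. H4c4 had 20.63 CPM in the WT control at 30 min, below the others. H4c6 had 19.59 CPM in the WT Firre line at 30 min, below the others.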

How the results depend on the processing

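The 6 members called between the control lines became 3 with total counts, 1 with loess offsets (H2ac5-ps, lower), 0 with a covariate for the promoter share and 0 without the Firre KO control libraries of 30 and 90 min. With 1 library left out at a time they ran from 0 to 16, with 3 without the Firre KO control at 30 min, 2 and 1 without the WT control at 30 and 90 min, and 11 without the WT Firre line at 150 min. Over the settings without 1 Firre KO control library at 30, 90 or 150 min, promoter intervals called higher ran from 8.98% to 24.5%, and with the covariate 1 of 16103 was. The promoter shares of the control lines did not overlap, so the covariate can hardly be told apart from the line. DESeq2, no filter, no time term and the 500 bp rule (19 members) each gave 6, with H3c8 in place of H2ac7 by DESeq2. Loess offsets called 1 member for the Firre line in the Firre KO background and 1 for the difference between backgrounds. In the comparison of the control lines H3c1 reversed to -0.071 with loess offsets, and Asf1b and Asf1a to -0.0082 and -0.18 with the covariate. H3c1 also reversed to -0.023 in the WT Firre comparison and to -0.027 in the difference between backgrounds, both with loess offsets. The cause was not tested. The 6 comparisons without called members kept 0 calls with every single library left out. The labels carry no replicate numbers to pair; libraries of the same time were blocked by the time term of the comparisons between lines, and without it 6 members were called as well.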
